A study of Mus musculus with 168 samples.

Results

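The 9 genes described here encode proteins of the U2 small nuclear ribonucleoprotein (snRNP): Snrpa1, Snrpb2, Sf3a1, Sf3a2, Sf3a3, Sf3b1, Sf3b2, Sf3b3 and Sf3b4. They are 9 of the 39410 rows of the expression table and were listed by name, and Snrpa1 was on the list because of its measured difference between control mice and a model of spinal muscular atrophy (SMA). The 8 other genes, called the partners here, were set beside it because their proteins sit in the same particle. The SMA minus control values below therefore describe the members, and nothing is read from any count of calls on them. The comparisons of ages and of populations within control mice did not enter that choice and were tested.

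RNA was read by Smart-seq2, which copies whole transcripts into cDNA, from neurons cut by laser out of frozen sections, with about 150 cells to a tube. SMA mice were of the delta7 line and carried Smn-/-, SMN2+/+ and SMN∆7+/+: they have no mouse Smn gene and rely on human SMN2 and on a human SMN transgene without 1 exon. Littermate controls were Smn+/+ with the same SMN2+/+ and SMN∆7+/+, so both genotypes carry the human transgenes. Mice were 2, 5 or 10 days old, stages that the study places before symptoms, early and late in disease. Motor neurons came from the oculomotor and trochlear nuclei (ocular), the facial, hypoglossal and vagus nuclei and the lumbar spinal cord, and red nucleus neurons of the midbrain were the population that is not of motor neurons. There were 168 libraries from 19 SMA and 15 control mice. Libraries of 1 mouse and population were averaged, which gave 88 SMA and 72 control samples in 36 groups of 3 to 7 mice, and the mouse was the replicate. By age there were 9 SMA and 6 control mice at day 2, 5 and 5 at day 5, and 5 and 4 at day 10. In 11 ocular libraries only 1 of the nuclei was present.

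The U2 snRNP is a core part of the spliceosome and pairs with the branch point of an intron. Snrpa1 encodes the A′ protein of U2, a leucine-rich repeat protein that binds the B″ protein, the product of Snrpb2, and together they sit on a stem-loop of the U2 RNA. The SF3a proteins (Sf3a1, Sf3a2, Sf3a3) and the SF3b proteins (Sf3b1 to Sf3b4 among them) join the particle and hold it on the branch point. SMN, the protein that is short in SMA, belongs to the complex that loads Sm proteins onto U2 and other spliceosomal RNAs.

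Levels are in RPKM, reads scaled to gene length in kilobases and to the depth of the library, so levels of different genes can be set beside each other. Depth ran from 0.342 to 16.288 M reads per library (median 5.893), with a median of 5.619 in SMA and 6.624 in control libraries. Mouse 252, a day 10 control, gave the shallowest library by far, from its red nucleus. Smn1, the gene removed in SMA mice, was lower in every SMA mouse than in every control in 18 of 18 pairs of groups, and 70 of 88 SMA samples were listed at 0. Chat, which marks cholinergic neurons, had a median of 17.6 to 32.6 in the motor populations of controls and of 0 in red nucleus, where Pou4f1 had a median of 179.6. Samples are bulk material, so fewer cells of a type and less RNA per cell cannot be told apart.

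Snrpa1 lies on chromosome 7 from 66059003 to 66074587 on the plus strand (GRCm38, GENCODE), and Snrpb2 on chromosome 2 from 143063039 to 143072853, also on the plus strand. Their promoters are shown because the proteins bind as a pair while the genes differed between genotypes to unlike extents. Sequences are from RefSeq (GRCm38.p6), 250 bases before to 50 bases after the annotated start, written 5′ to 3′ on the plus strand, at chr7:66060086-66060385 for Snrpa1 and chr2:143062819-143063118 for Snrpb2. The Snrpa1 window lies within the GENCODE gene, which begins further upstream. Capitals mark the GC box, GGGCGG on either strand.
Snrpa1: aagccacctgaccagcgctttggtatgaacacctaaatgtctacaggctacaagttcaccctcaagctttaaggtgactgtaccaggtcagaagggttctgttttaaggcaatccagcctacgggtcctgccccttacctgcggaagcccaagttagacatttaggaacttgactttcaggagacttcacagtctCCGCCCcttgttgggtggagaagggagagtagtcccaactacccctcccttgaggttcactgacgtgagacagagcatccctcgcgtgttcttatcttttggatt
Snrpb2: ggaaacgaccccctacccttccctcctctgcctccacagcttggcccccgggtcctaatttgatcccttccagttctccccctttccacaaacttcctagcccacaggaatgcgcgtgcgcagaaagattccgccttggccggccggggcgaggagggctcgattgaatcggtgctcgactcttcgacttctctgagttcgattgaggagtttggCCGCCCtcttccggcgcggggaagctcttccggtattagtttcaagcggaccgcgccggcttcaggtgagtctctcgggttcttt
Each window held 1 GC box, on the minus strand, at position -55 from the start in Snrpa1 and -35 in Snrpb2. The Snrpa1 window had 7 CpG dinucleotides and the Snrpb2 window 24. Windows were found for 8 of the 9 members. The partners' windows held 20 to 41 CpG. GGGCGG was present in 35.66% of 32851 promoters of this length, CCAAT in 37.41%, TATAAA in 13.62%, CACGTG in 7.15% and a p53 half-site in 8.36%, with both strands searched and overlapping matches of different motifs counted for each. Neither window held any of these motifs other than the GC box. A match is a run of letters and no measured site.

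Snrpa1 had 93.1 ± 32.9 RPKM in SMA (SD, n = 88) and 42.5 ± 16.3 in control samples (SD, n = 72). In ocular, facial, hypoglossal and lumbar motor neurons every SMA mouse lay above every control at all 3 ages. In red nucleus this held at day 5 alone, and in vagus motor neurons at no age, which makes 13 of 18 pairs of groups. Differences are given on the log2(RPKM + 1) scale from a limma fit per population, where 1 is a doubling, with the standard error (SE). Averaged over the ages, the SMA minus control difference was 1.496 (SE 0.11) in lumbar, 1.44 (SE 0.15) in facial, 1.36 (SE 0.15) in ocular and 1.21 (SE 0.16) in hypoglossal neurons. It was 0.53 (SE 0.18) in red nucleus and 0.51 (SE 0.25) in vagus. Whether the genotype difference differed between populations was not tested.

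**Figure D1:**
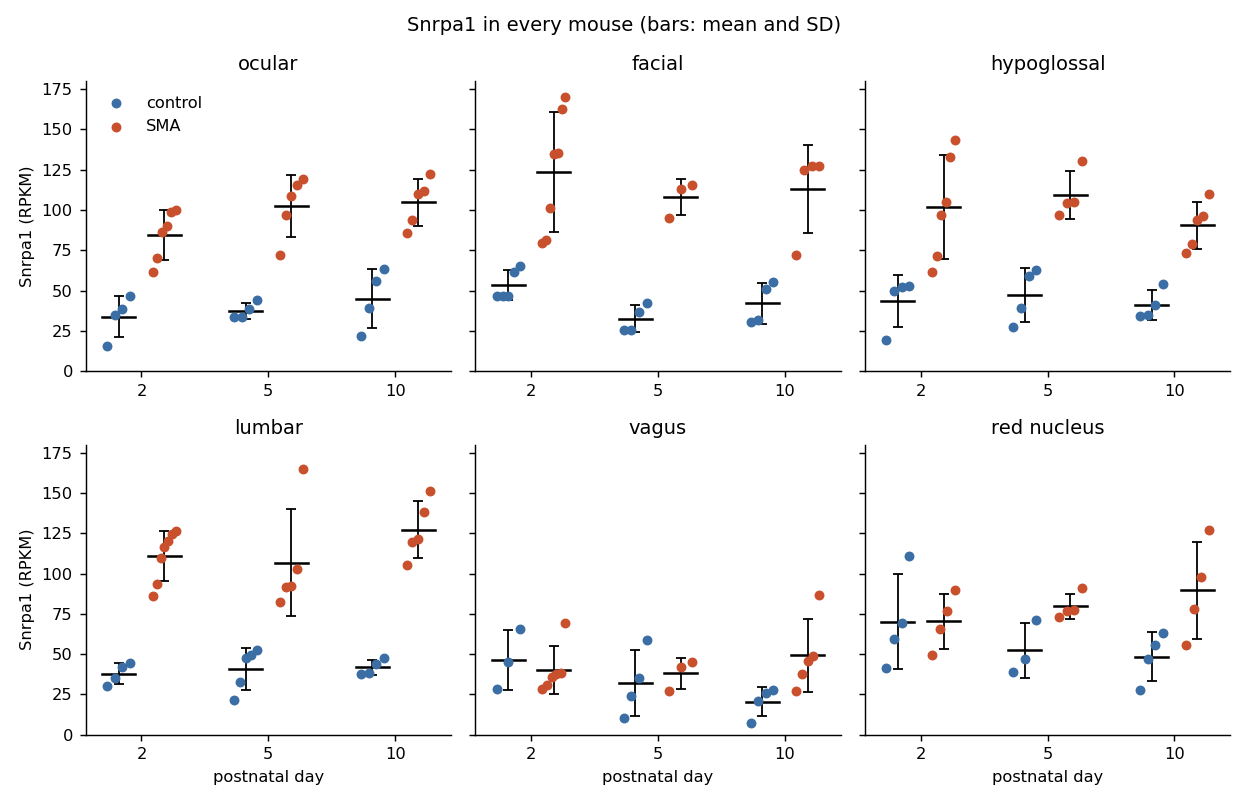
Snrpa1 level (RPKM, y axis) in every mouse against postnatal day (x axis) in the 6 populations, with control mice in blue, SMA mice in red, and black bars for the mean and SD. SMA points lie above all control points at every age in ocular, facial, hypoglossal and lumbar neurons, while vagus groups overlap at every age and red nucleus groups at days 2 and 10.

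In lumbar motor neurons, a population known to be vulnerable in SMA, the day 2 controls had 30.3, 35.1, 41.8 and 44.6 RPKM of Snrpa1, and the 7 SMA mice ran from 85.9 to 126.2 with a median of 116.4. At day 5 the controls had 21.7, 32.6, 47.5, 49.7 and 52.4, and the SMA mice 82.5, 91.5, 92.2, 102.8 and 164.6. At day 10 the controls had 37.8, 38.5, 43.7 and 47.7, and the SMA mice 105.6, 119.4, 121.5, 138.1 and 151.0. The lowest SMA mouse of each age was thus well clear of the highest control. Differences were 1.53 (SE 0.19), 1.39 (SE 0.19) and 1.57 (SE 0.21) at days 2, 5 and 10. Every SMA mouse exceeded every control for 0.354%, 0.769% and 2.76% of all genes tested at those days, and 0.0122%, 0.0488% and 0.775% passed an adjusted p of 0.05 in limma; as Snrpa1 was picked on this contrast, nothing is read from its place among them. Per the labels, the day 5 lumbar controls include reads deposited earlier, which were pooled at mapping. Their Snrpa1 mean of 40.8 lay between those of day 2 (37.9) and day 10 (41.9).

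Facial motor neurons gave control values of 46.4, 46.5, 46.5, 61.5 and 65.2 RPKM at day 2, against an SMA range of 79.3 to 170.3 with a median of 134.8 over 7 mice. The day 5 controls had 25.3, 25.5, 36.4 and 42.2, and the SMA mice 95.2, 113.3 and 115.2. At day 10 the controls had 30.6, 31.6, 50.8 and 55.0, and the SMA mice 71.9, 125.03, 126.98 and 127.1. SMA mouse 196 stood apart below its group at day 10, yet above every control. Differences were 1.16 (SE 0.22), 1.74 (SE 0.28) and 1.41 (SE 0.26), of which the day 5 value was the highest of the 18 pairs of groups. For all genes, the shares with every SMA mouse above every control were 0.255%, 4.05% and 3.32%, and those past the limma threshold 0.0232%, 0.0695% and 0.666%. The summed level of 5 astrocyte genes did not overlap between the day 10 groups, with 25.2 to 35.7 RPKM in control and 39.2 to 68.3 in SMA. Gfap, an astrocyte filament gene, had 0.726 to 3.00 in control and 11.6 to 22.8 in SMA, and none of the 5 genes was at 0 in any of these mice. Aqp4 of the same list did not overlap either, with 3.32 to 6.34 in control and 6.58 to 13.4 in SMA. Aldh1l1 and Slc1a3 overlapped, and the median of Slc1a3 was lower in SMA (7.57 against 8.75 in control). At day 5 the summed level of the 2 red nucleus genes, Slc17a6 and Pou4f1, did not overlap, with 2.94 to 10.6 in control and 11.01 to 11.7 in SMA. Slc17a6 alone overlapped (2.94 to 10.6 in control, 10.2 to 11.5 in SMA). Pou4f1 was at 0 in 3 of 4 controls and reached 1.26 in control and 0.84 in SMA. Their part in the Snrpa1 difference was not tested.

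Ocular motor neurons, known to be relatively spared in SMA, had the same direction. Control values were 15.8, 34.9, 38.3 and 46.4 RPKM at day 2, and the 6 SMA mice ran from 61.5 to 100.3 with a median of 88.3. At day 5 the controls had 33.7, 33.8, 38.8 and 44.2, and the SMA mice 72.2, 96.8, 108.7, 115.8 and 119.5. At day 10 the controls had 21.9, 39.3, 55.8 and 63.2, and the SMA mice 85.7, 94.02, 109.9, 111.6 and 122.4. The genotypes were apart at each age. Differences were 1.37 (SE 0.25), 1.41 (SE 0.26) and 1.29 (SE 0.26). The matching shares of all genes were 0.975%, 1.39% and 2.32% without overlap and 0.132%, 0.0252% and 0.359% past the limma threshold. The summed level of 4 motor neuron genes at day 10 was lower in SMA without overlap, with 452.5 to 875.1 RPKM against 926.0 to 1024 in control, and none of the 4 was at 0. By median Chat, Slc5a7 and Prph were lower in SMA, and Isl1 was higher (62.8 against 57.1 in control). The 2 red nucleus genes summed to 4.74 to 16.9 in control and 9.07 to 176.9 in SMA, with overlap. The part of these genes in the Snrpa1 difference was not tested.

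In hypoglossal motor neurons the controls had 19.2, 49.5, 51.9 and 52.6 RPKM at day 2, and the 6 SMA mice 61.5 to 143.3 with a median of 100.9. The day 5 controls had 27.4, 39.1, 59.1 and 62.7, and the SMA mice 96.6, 104.6, 104.7 and 130.7. At day 10 the controls had 34.3, 34.9, 41.2 and 54.2, and the SMA mice 73.3, 79.1, 93.9, 96.001 and 109.998. The groups were separate at each age, with the narrowest gap at day 2. Differences were 1.25 (SE 0.27), 1.26 (SE 0.29) and 1.13 (SE 0.28). Of all genes, 1.16%, 1.8% and 1.86% had SMA above control without overlap, and 0.0364%, 0.00607% and 0.0728% passed the limma threshold. The 2 red nucleus genes at day 10 summed to 3.46 to 13.1 RPKM in control and 17.7 to 27.0 in SMA, with Pou4f1 at 0 in 2 of 4 controls and 1 of 5 SMA mice. Slc17a6 alone had 3.46 to 11.5 in control and 17.4 to 26.7 in SMA. Pou4f1 reached 5.28 in control and 0.918 in SMA, so it was not the gene that was higher in SMA. The part of these genes in the Snrpa1 difference was not tested.

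In vagus motor neurons the genotypes overlapped at every age. At day 2 the controls had 28.4, 45.4 and 65.5 RPKM, and the 6 SMA mice 28.5 to 69.5 with a median of 36.8, so the genotypes covered the same range. The day 5 controls had 10.5, 23.9, 35.03 and 59.1, and the SMA mice 27.4, 42.0 and 45.2. At day 10 the controls had 7.44, 21.2, 26.0 and 27.7, and the SMA mice 27.1, 37.7, 46.0, 48.9 and 86.5, with 1 SMA mouse under the highest control. Differences were -0.19 (SE 0.43), 0.45 (SE 0.47) and 1.26 (SE 0.41) at days 2, 5 and 10. The day 10 difference was near those of hypoglossal (1.13, SE 0.28) and ocular neurons (1.29, SE 0.26) at that age. It went with a low control group (20.6 ± 9.20, SD, n = 4). The SMA mean of 49.3 stayed below the SMA means of the other populations at day 10. Shares of all genes were 1.81%, 3.01% and 0.569% without overlap and 0.00599%, 0.00599% and 0.00599% past the limma threshold. At day 5 the summed astrocyte genes were lower in SMA without overlap (27.8 to 50.4 RPKM against 51.3 to 100.04 in control, none of the 5 at 0). By median Aqp4, Slc1a3 and Aldh1l1 were lower in SMA. Gfap of the same list was higher (10.5 against 6.69 in control), with overlap. The 4 vessel genes were higher in SMA at day 10 (0.697 to 9.54 against 0.156 to 0.618), with Cldn5 and Pecam1 each at 0 in 3 of 4 controls. Their part in these differences was not tested.

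Red nucleus neurons had the highest Snrpa1 in controls at day 2, with 41.2, 59.2, 69.1 and 110.9 RPKM, and the SMA mice had 49.8, 65.4, 76.6 and 89.8. At day 5 the controls had 38.7, 47.05 and 71.4, and the SMA mice 73.4, 77.0, 77.6 and 91.2, just clear of the highest control. At day 10 the controls had 28.0, 46.8, 55.6 and 63.2, and the SMA mice 55.9, 78.1, 97.8 and 126.97. The lowest of these controls was mouse 252, the shallowest library. Differences were 0.06 (SE 0.30), 0.64 (SE 0.33) and 0.87 (SE 0.30). Across all genes 2.54%, 2.43% and 3.56% had no overlap with SMA above, and 0.0434%, 0.0062% and 0.0124% passed the limma threshold.

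The same mice can be followed across populations. Among SMA mice with both samples, facial neurons had more Snrpa1 than vagus neurons in 13 of 13, with a median ratio of 2.70, and lumbar more than vagus in 12 of 12, with a median ratio of 3.25. In controls facial exceeded vagus in 9 of 10 mice (median ratio 1.64) and lumbar exceeded vagus in 7 of 10 (median ratio 1.59). Lumbar neurons had more Snrpa1 than red nucleus in 12 of 12 SMA mice and in 1 of 9 control mice. The difference between genotypes in these counts was not tested.

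Library numbers in the sample titles partly followed genotype at day 2, where most control libraries carry numbers before or after all SMA libraries of the population. In lumbar neurons 2 control libraries had numbers among the SMA ones, and their Snrpa1 was 30.3 and 44.6 RPKM against 85.9 to 127.3 in the 8 SMA libraries. In facial neurons the 3 controls numbered before the SMA libraries had 46.5 to 61.5 and the 2 numbered after them 46.4 to 65.2, all under the lowest SMA value of 79.3. Controls numbered before had 34.9 to 46.4 in ocular, 19.2 to 49.5 in hypoglossal, 28.4 in vagus and 41.2 to 110.9 in red nucleus. Those numbered after had 15.8, 51.9 to 52.6, 45.4 to 65.5 and 69.1 in the same order. The later ages were not free of this. In facial and hypoglossal neurons at day 5 and in red nucleus at day 10, no SMA library was numbered among the controls. The SMA libraries there were numbered partly before and partly after all controls. An effect of library number was not tested at any age. The summed levels of the 6 marker lists did not overlap between genotypes in 7 of 108 comparisons, 0 of them in lumbar neurons; 6 of the 7 are given with their populations above, and the other is that of oligodendrocytes in red nucleus at day 2. With the ages pooled, the sum of 5 oligodendrocyte genes in lumbar samples ran from 6.50 to 1028 RPKM in control and 9.43 to 880 in SMA. That of 5 astrocyte genes ran from 20.2 to 70.2 in control and from 20.7 to 108 in SMA. Such ranges mix the ages, so they cannot show whether the genotypes differed at a given age. A summed list can also hide a difference in a single gene, so the lumbar samples are not shown to be free of marker differences. The part of the marker genes in the Snrpa1 difference was not tested.

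Among the partners, SMA minus control differences were mostly small and positive. Of 144 such differences (8 genes in 18 pairs of groups) 120 were above 0, with a median of 0.25 and a range of -0.57 to 2.197, while the median over all genes lay between -0.01 and 0.13. The limma threshold, an adjusted p of 0.05 over all genes tested, was passed by 0 of the 144, and 23 had an unadjusted p under 0.05. Over all genes 0.00599% to 0.775% passed the threshold in a pair of groups. Genes with an unadjusted p under 0.05 ran from 498 of 16134 (red nucleus, day 5) to 1787 of 15890 (ocular, day 2). Snrpa1 had a larger difference than every partner in 14 of 18 pairs of groups, and the 4 others were in vagus (days 2 and 5) and red nucleus (days 2 and 10). As the list was drawn up with these values known, the counts are a description and nothing is read from them.

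**Figure D2:**
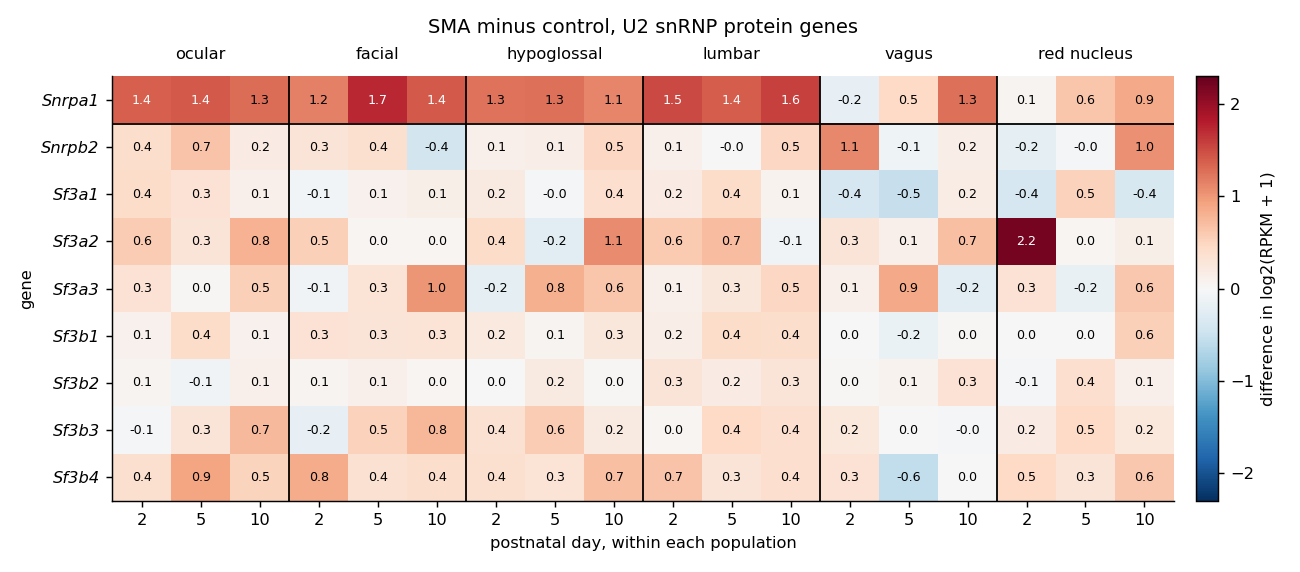
Difference in log2(RPKM + 1), SMA minus control, for the 9 genes (rows) in the 18 pairs of groups (columns: postnatal day within population), with red for higher and blue for lower in SMA. The Snrpa1 row is dark red across the ocular, facial, hypoglossal and lumbar columns, and the darkest partner cell is Sf3a2 in red nucleus at day 2 (2.197).

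Snrpb2, whose product is the direct binding partner of the A′ protein, had 72.5 ± 21.1 RPKM in SMA (SD, n = 88) and 61.5 ± 21.3 in control (SD, n = 72). Averaged over the ages its difference ran from 0.08 (SE 0.13) in facial to 0.42 (SE 0.20) in ocular neurons. In lumbar neurons at day 10 the controls had 38.4, 40.6, 60.9 and 60.9, and the SMA mice 48.8, 51.97, 80.6, 80.7 and 94.4, so the groups overlapped where those of Snrpa1 did not. SMA mice lay above every control in 3 of 18 pairs of groups. These were facial neurons at day 5, red nucleus at day 10 and vagus at day 2, where the same held for 4.05%, 3.56% and 1.81% of all genes. Over the 18 pairs that share ran from 0.255% to 4.05%, and nothing particular to a partner is read from its count.

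In vagus at day 2 the Snrpb2 controls had 41.0, 45.8 and 53.8 RPKM and the SMA mice 86.4 to 116.99 with a median of 101.97, a difference of 1.10 (SE 0.29). The Snrpa1 groups overlapped there. In red nucleus at day 10 the Snrpb2 controls had 20.2, 21.1, 30.9 and 50.98, and the SMA mice 53.1, 57.4, 65.1 and 66.4, a difference of 1.05 (SE 0.32). The lowest of these controls was again mouse 252.

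As levels per length can be compared between genes, Snrpa1 was set against Snrpb2 in each sample. Snrpa1 was the more abundant in 16 of 72 control samples and in 68 of 88 SMA samples, and the median ratio of Snrpa1 to Snrpb2 was 0.703 in control and 1.28 in SMA. Among SMA samples Snrpa1 was above Snrpb2 in 17 of 17 lumbar, 14 of 14 facial, 15 of 16 ocular, 10 of 15 hypoglossal and 10 of 12 red nucleus samples, but in 2 of 14 vagus samples. In control samples the counts were 1 of 13 lumbar, 3 of 13 facial, 4 of 12 ocular, 1 of 12 hypoglossal, 6 of 11 red nucleus and 1 of 11 vagus. Snrpa1 was the most abundant of the 9 members in 66 SMA and 10 control samples, and Snrpb2 in 18 and 46.

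**Figure D3:**
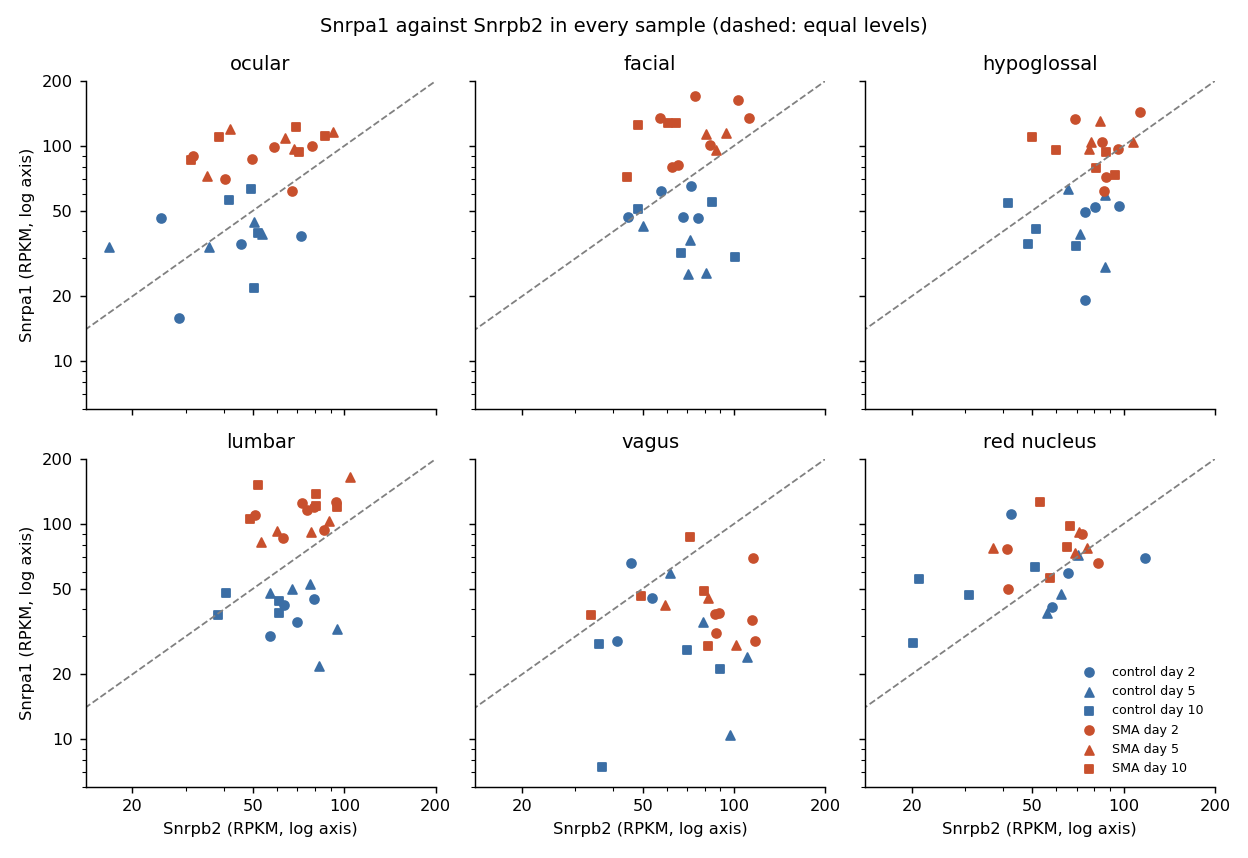
Snrpa1 (y axis) against Snrpb2 (x axis), both in RPKM on log axes, in every sample of the 6 populations, with control in blue, SMA in red, marker shape for the day and a dashed line where both levels are equal. All 17 lumbar and 14 facial SMA samples lie above the line, while 2 of 14 vagus SMA samples do.

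The SF3a genes had lower levels and no shared pattern. Sf3a1, the largest SF3a subunit, had 12.2 ± 2.76 RPKM in SMA (SD, n = 88) and 11.9 ± 4.06 in control (SD, n = 72). Its differences averaged over ages ran from -0.25 (SE 0.17) in vagus to 0.29 (SE 0.18) in ocular neurons, and 6 of its 18 values were at or under 0. In red nucleus at day 2 its SMA mice (9.24 to 13.2) lay below every control (14.3 to 15.8), the only such pair among the members. The share of all genes in that direction was not computed, so nothing is read from it. Sf3a3 had 21.7 ± 7.75 and 17.8 ± 7.09, with averages of 0.25 (SE 0.20) in vagus to 0.42 (SE 0.24) in facial neurons. Its SMA mice lay above every control in 2 of 18 pairs of groups, hypoglossal and vagus neurons at day 5 (1.8% and 3.01% of all genes). In vagus at day 5 it had controls at 14.6, 17.9, 20.0 and 23.8 and SMA mice at 30.0, 36.9 and 39.4.

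Sf3a2 was the scarcest of the SF3a genes and varied most, with 7.67 ± 3.71 RPKM in SMA and 5.14 ± 2.50 in control (SD, n = 88 and 72). The difference of 2.197 (SE 0.49) in red nucleus at day 2 came from controls at 0.0954, 0.230, 1.69 and 4.70 and SMA mice at 5.50, 9.56, 10.0 and 11.1. At the median depth 1 read of this gene is worth 0.0638 RPKM, so the lowest control values stand for very few reads. The 5 oligodendrocyte genes also differed there, with summed levels of 5.01 to 11.6 in control and 11.9 to 32.3 in SMA, Mobp at 0 in 4 of 4 controls and 3 of 4 SMA mice, and Mog at 0 in 3 of 4 of each. Their part in the result was not tested. In hypoglossal neurons at day 10 the Sf3a2 controls had 2.71, 5.12, 5.14 and 5.66 and the SMA mice 8.30, 8.48, 8.74, 14.2 and 16.1, a difference of 1.09 (SE 0.34). These were the 2 pairs of groups of 18 in which its SMA mice lay above every control, as did 2.54% (red nucleus, day 2) and 1.86% (hypoglossal, day 10) of all genes. Exons at its 5′ end overlap those of Plekhj1 on the other strand by 429 bases, and whether counting used strand is not stated, so its level is uncertain.

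Among the 9 members Sf3b2 and Sf3b1 varied least between control samples, with coefficients of variation of 17.8% and 21.7%. Sf3b1, the large subunit that clasps the branch point helix, had 39.5 ± 6.16 RPKM in SMA (SD, n = 88) and 34.3 ± 7.46 in control (SD, n = 72), and its average difference ran from -0.04 (SE 0.11) in vagus to 0.33 (SE 0.08) in lumbar neurons. Sf3b2 had 50.1 ± 8.75 and 46.0 ± 8.20, with averages of 0.04 (SE 0.10) in ocular to 0.26 (SE 0.09) in lumbar neurons. Sf3b3 had 16.1 ± 4.41 and 13.3 ± 4.59, with averages of 0.07 (SE 0.19) in vagus to 0.38 (SE 0.16) in hypoglossal neurons. In facial neurons at day 10 its controls had 10.2, 10.8, 11.2 and 11.8 and its SMA mice 13.2, 19.5, 20.9 and 25.3. Sf3b4, which binds beside Sf3b2 near the branch point, had 7.70 ± 2.50 and 5.45 ± 1.88, and its average was -0.08 (SE 0.18) in vagus and 0.45 (SE 0.13) to 0.59 (SE 0.16) in the other populations. SMA mice lay above every control in 1, 1, 2 and 0 of 18 pairs of groups for Sf3b1, Sf3b2, Sf3b3 and Sf3b4. The share of all genes was 3.56% for the pair of Sf3b1 (red nucleus, day 10), 2.43% for that of Sf3b2 (red nucleus, day 5) and 4.05% and 3.32% for those of Sf3b3 (facial, days 5 and 10). The exons of Sf3b2, Sf3b3 and Sf3b4 also overlap other genes on the opposite strand, and those of Snrpa1 overlap Gm45213 by 148 bases on its own strand.

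Other spliceosome genes were looked at as a list of 36, drawn up with earlier results known: other U2 proteins, genes that read the 3′ splice site, U1 proteins and tri-snRNP proteins. Of these, 35 matched a row. In the comparison of SMA with control, 1 of 210 tests at day 10 passed the limma threshold upward and 0 downward, and 0 of 210 passed at day 2 and at day 5. That gene was Sf3b5, a small SF3b subunit, with a difference of 1.07 (SE 0.24) in lumbar neurons, where 0.775% of all genes passed at day 10. In the other populations at that age the share of all genes was 0.00599% to 0.666%. Averaged over the ages 1 of 210 passed, U2af1 in facial neurons, with a difference of 0.77 (SE 0.18, limma adjusted p 0.0375). All genes passed that test at 0.371% in ocular, 0.591% in facial, 0.0789% in hypoglossal, 0.696% in lumbar, 0.00599% in vagus and 0.0062% in red nucleus neurons. Nothing particular to the list is read from 1 call.

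Age was tested in control mice as day 10 minus day 2, with limma and adjustment over all genes of the population. Snrpa1 did not pass in any population: the difference was 0.40 (SE 0.28, adjusted p 0.446) in ocular, -0.37 (SE 0.25, 0.497) in facial, 0.01 (SE 0.29, 1) in hypoglossal, 0.15 (SE 0.22, 0.748) in lumbar, -1.20 (SE 0.47, 0.256) in vagus and -0.50 (SE 0.30, 0.331) in red nucleus neurons. The vagus controls had 28.4, 45.4 and 65.5 RPKM at day 2 and 7.44, 21.2, 26.0 and 27.7 at day 10. Each day 10 mouse thus lay below each day 2 mouse, and the 95% interval of the difference was -2.17 to -0.24 before adjustment. The share of all genes whose ages did not overlap was not computed, so nothing is read from this separation. Of the 9 members 0 passed in ocular, facial, hypoglossal, lumbar and vagus neurons, with 0, 1, 2, 0 and 2 at an unadjusted p under 0.05. Over all genes the limma test called 8.02% in ocular, 5.36% in facial, 5.11% in hypoglossal, 12% in lumbar and 1.02% in vagus neurons. The unadjusted p was under 0.05 for 3381 of 15890 genes in ocular, 3009 of 17270 in facial and 2979 of 16486 in hypoglossal neurons. In lumbar neurons this held for 3885 of 16382 genes and in vagus for 2159 of 16703.

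In red nucleus, where 11.1% of all genes were called, 3 of the 9 members passed. Sf3b1 fell by 0.80 on the log2 scale (SE 0.19, limma adjusted p 0.00782). Its day 2 controls had 32.8, 48.7, 49.0 and 49.2 RPKM and its day 10 controls 21.4, 24.3, 26.0 and 29.0, with no overlap. The share of all genes without such overlap was not computed here either. Snrpb2 fell by 1.17 (SE 0.32, limma adjusted p 0.0184), from 42.4, 57.9, 65.3 and 117.3 at day 2 to 20.2, 21.1, 30.9 and 50.98 at day 10, which overlap in 1 mouse of each age. Sf3a2 rose by 1.59 (SE 0.49, limma adjusted p 0.0383), from 0.0954, 0.230, 1.69 and 4.70 to 1.94, 5.62, 6.56 and 10.7, and these ages overlap as well.

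The red nucleus calls rest on few mice. Without the shallow library of mouse 252, or without mouse 244 of day 2, 1 of the 9 members passed. For Snrpb2 the limma adjusted p was 0.0715 without mouse 252, 0.0784 without mouse 244 and 0.0535 without mouse 247. For Sf3a2 it was 0.0895 without mouse 252, 0.125 without mouse 244, 0.108 without mouse 26, 0.122 without mouse 254 and 0.0718 without mouse 253. Without a filter on low values that of Sf3a2 was 0.0635. Sf3b1 passed each time a mouse was left out. In a fit of the 2 compared groups alone 0 of the 9 passed, and the limma adjusted p was 0.106 for Sf3b1, 0.1 for Snrpb2 and 0.174 for Sf3a2. The summed oligodendrocyte markers also differed between these samples, with 5.01 to 11.6 RPKM at day 2 and 293 to 587 at day 10; Mobp was at 0 in 4 of 4 and Mog and Mag in 3 of 4 day 2 controls, and none of the 5 genes was at 0 at day 10. Their part in the result was not tested.

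**Figure D4:**
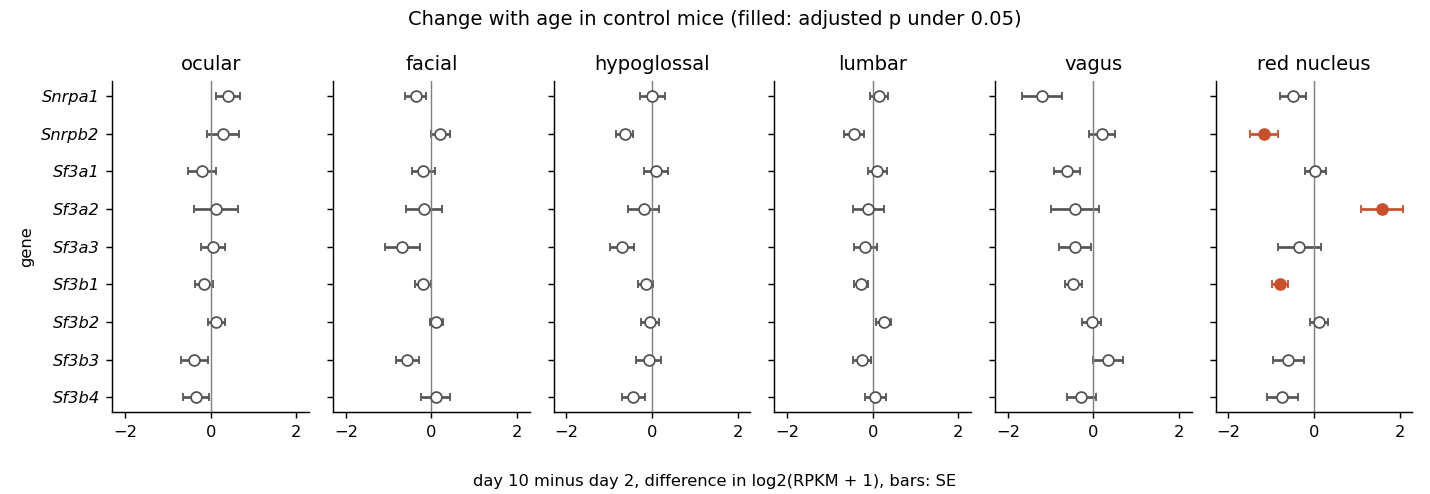
Day 10 minus day 2 difference in log2(RPKM + 1) in control mice (x axis, bars show the SE) for the 9 genes (rows) in the 6 populations (panels), with filled red points for a limma adjusted p under 0.05. Filled points appear in the red nucleus panel only, for Snrpb2, Sf3a2 and Sf3b1.

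Whether the age difference itself differed between populations was asked with an F test over all control samples, added after the data were seen. It passed for 0 of the 9 members, against 4.02% of all genes in limma. The unadjusted p was under 0.05 for 2 of the 9 members and for 3257 of all 19621 genes. Snrpb2 came nearest, with a limma adjusted p of 0.0622. Its adjusted p ran from 0.0139 to 0.308 as each mouse was left out, and it passed without mouse 253, 28 or 29. Of the other spliceosome genes, 0 of 210 tests rose with age in controls and 4 fell, 3 of them in hypoglossal neurons and 1 in red nucleus, where 5.11% and 11.1% of all genes passed in either direction. Nothing particular to the list is read from this. In hypoglossal neurons Snrnp40, a tri-snRNP protein, fell by 1.64 (SE 0.28, limma adjusted p 0.000559), Nhp2l1 by 1.11 (SE 0.25, 0.00663) and Sf3b6, listed as 0610009D07Rik, by 0.69 (SE 0.17, 0.016). In red nucleus U2af1, the factor that reads the end of the intron, fell by 1.39 (SE 0.33, 0.00754).

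The populations were compared in the 72 control samples with the mouse as a random block in limma, averaged over the ages. An F test over the populations passed for 3 of the 9 members, where 45.8% of all 19621 genes passed. These were Snrpb2 (adjusted p 0.000702), Snrpa1 (0.0164) and Sf3b4 (0.0186). The adjusted p of the other 6 ran from 0.224 (Sf3b1) to 0.770 (Sf3a3). Without control mouse 254 or 26 that of Snrpa1 was 0.0781 and 0.0547, and without mouse 240 or 247 that of Sf3b4 was 0.0547 and 0.0549. Sf3b1 passed without mouse 26 (0.0279).

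Snrpa1 was lowest in vagus with 31.8 ± 18.3 RPKM (SD, n = 11), followed by ocular with 38.8 ± 13.0 (n = 12), lumbar with 40.3 ± 8.73 (n = 13), facial with 43.3 ± 13.0 (n = 13), hypoglossal with 43.8 ± 13.3 (n = 12) and red nucleus with 57.4 ± 22.2 (n = 11). Of the 15 pairs of populations, vagus against red nucleus passed, with a difference of -0.92 (SE 0.22, limma adjusted p 0.000971). No neighbours in the order passed: the limma adjusted p was 0.225 for vagus and ocular and 0.266 for hypoglossal and red nucleus, whose difference had a 95% interval of -0.79 to 0.07. So the order cannot be read as a ranking. It also pools the ages: the vagus control mean was 46.4 at day 2, above ocular (33.8), lumbar (37.9) and hypoglossal (43.3), was 32.1 at day 5, beside 32.4 in facial, and was 20.6 at day 10. With the ages pooled, vagus also had the lowest mean in SMA (43.0 ± 16.7, n = 14), where lumbar and facial had 114.4 ± 22.8 (n = 17) and 117.1 ± 29.5 (n = 14).

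Snrpb2 had another order. It was lowest in ocular neurons with 43.4 RPKM (16.7 to 71.998, n = 12) and 54.1 ± 27.2 in red nucleus (n = 11), and 65.3 ± 15.9 to 70.7 ± 16.6 in the 4 other populations, highest in hypoglossal (n = 12). Of the 15 pairs 5 passed: ocular lay below hypoglossal by 0.74 (SE 0.17, limma adjusted p 0.000733), below facial by 0.71 (SE 0.17, 0.00113), below lumbar by 0.60 (SE 0.17, 0.00663) and below vagus by 0.54 (SE 0.17, 0.013), and hypoglossal lay above red nucleus by 0.48 (SE 0.17, 0.0404). Sf3b4 was highest in vagus with 7.60 ± 2.33 (n = 11) and lowest in red nucleus with 4.43 ± 1.48 (n = 11), a difference of 0.65 (SE 0.17, limma adjusted p 0.00198). Vagus also passed against hypoglossal and ocular for this gene, which makes 3 of 15 pairs. Vagus against facial (limma adjusted p 0.0534) and against lumbar (0.0654) did not pass.

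For comparison, the limma test called 14% of all genes between ocular and facial neurons, 14.8% between ocular and hypoglossal, 15.7% between ocular and lumbar, 26.7% between ocular and vagus and 17.3% between ocular and red nucleus. It called 4.95% between facial and hypoglossal, 8.66% between facial and lumbar, 22.8% between facial and vagus and 19.4% between facial and red nucleus. It called 11.9% between hypoglossal and lumbar, 21.7% between hypoglossal and vagus, 20.8% between hypoglossal and red nucleus, 28.3% between lumbar and vagus, 22.3% between lumbar and red nucleus and 23.8% between vagus and red nucleus. The 6 other members had 0 of 15 pairs past the threshold, and their largest difference was 0.56, in Sf3a2, on the log2 scale.

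**Figure D5:**
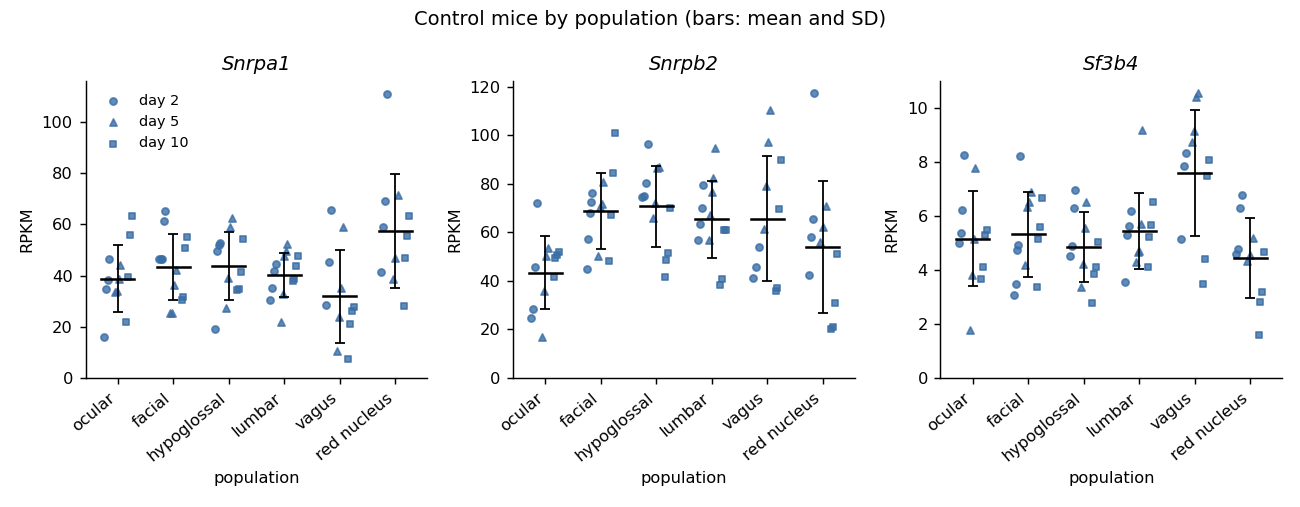
Levels (RPKM, y axis, from 0) of Snrpa1, Snrpb2 and Sf3b4 in control mice by population (x axis), with a point for each mouse, marker shape for the day and black bars for the mean and SD. Over all ages the mean of Snrpa1 is highest in red nucleus and lowest in vagus, that of Snrpb2 is lowest in ocular neurons, and that of Sf3b4 is highest in vagus.

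Genes were also ranked by how like Snrpa1 they were, as Pearson's r of log2(RPKM + 1) group means, a description that shares libraries and depth between genes. Over the 36 groups, where the SMA difference enters, the nearest of 13728 genes were Snord13 (0.785), Uspl1 (0.785), Snord118 (0.772), Dgki (0.740) and Zfp87 (0.728). The partners had r of 0.206 (Sf3b2) to 0.532 (Sf3b1), and Snrpb2 0.227. Over the 18 control groups alone the nearest were Fastkd1 (0.831), L3hypdh (0.817), Nkain3 (0.807), Ctnnal1 (0.797) and Eif2b3 (0.779), and the partners ran from -0.391 (Sf3b4) to 0.305 (Sf3a1). Snrpb2 had -0.015 there. None of the 5 nearest genes was a partner in either ranking. With Spearman's rho in place of Pearson's r, Ctnnal1 had 0.449 over the control groups.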

How the data were processed

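The authors deposited 1 table of RPKM, which are scaled by depth and by the length of the gene, with a column for each of the 168 libraries. Per the submitters' processing notes, STAR 2.4.1c was used with builds mm10 and hg19; the read counter, annotation and use of strand are not given in the sources used here. Libraries of 1 mouse and population were averaged, and log2(RPKM + 1) of the deposited values was tested with limma 3.58.1 in R 4.3.3 (lmFit, eBayes with trend), so log2 differences understate changes of low genes. Each population was fitted with its 6 groups. A gene needed an RPKM of at least 1 in a number of samples equal to the smallest group. Tests were two-sided with p-values adjusted by Benjamini and Hochberg over all genes of a contrast, with a threshold of 0.05. The control populations were compared in 1 fit with the mouse as a random block, because the mouse number in the labels marks 1 animal across populations (correlation within mice 0.0339); SMA and control share no mouse, and litters are not given in the labels used here. P-values judge a difference between groups against the spread between these mice, which limma pools over the groups of a fit and adjusts with that of other genes.

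Depth was read from the size of 1 read in 17340 genes with a single transcript. It was not used to recover counts, so no count test was run. The scripts were tested on simulated data. Gene positions are from GENCODE M21. The named genes were the 9 members, Smn1, the 5 genes most like Snrpa1 over all groups and over control groups, and list genes past the threshold. The members, the gene lists and the markers were chosen with earlier results of these data known; 1 motor neuron marker had no row. Alternatives were the pseudocount (0.1), no filter, quantile normalization, single libraries as samples, only the groups compared, other treatment of the mouse block, and leaving out each mouse.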

Additional observations from a re-analysis of the deposited data

Results flagged for a closer look

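In groups of 4 to 10 mice, a sample was picked out where its gap to the nearest other mouse was a large share of the range of its group (Dixon's test at 95%). Of 288 groups of a member, population, age and genotype tested, 12 held such a sample, and chance picks out about 1 in 20 groups. For Snrpa1 these were facial SMA mouse 196 at day 10 (71.9 RPKM, others 125.03 to 127.1), hypoglossal control mouse 26 at day 2 (19.2, others 49.5 to 52.6), lumbar SMA mouse 77 at day 5 (164.6, others 82.5 to 102.8) and vagus SMA mouse 209 at day 2 (69.5, others 28.5 to 38.6). The facial mouse still lay above every facial control of its age.

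Mouse 77 also stood apart in lumbar neurons at day 5 for Sf3b3, at the low end (8.17, others 14.2 to 15.9). In red nucleus at day 2 Sf3b1 was low in SMA mouse 209 (38.4, others 46.5 to 47.3) and in control mouse 26 (32.8, others 48.7 to 49.2). Sf3a1 was high in vagus control mouse 252 at day 10 (13.0, others 7.57 to 8.001), and Sf3b2 was low in facial control mouse 244 at day 2 (39.7, others 45.9 to 48.2). Sf3b4 was low in hypoglossal SMA mouse 46 at day 5 (4.86, others 6.62 to 6.78) and in lumbar SMA mouse 31 at day 5 (4.89, others 7.32 to 8.10), and high in ocular SMA mouse 207 at day 2 (12.8, others 6.06 to 8.54).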

How the results depend on the processing

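The SMA minus control difference of Snrpa1 was recomputed 250 times over the 18 pairs of groups, with another pseudocount, filter, normalization, handling of libraries or set of groups and with each mouse left out. In 0 of these did it move by as much as the spread between mice or change sign where it was past the threshold, and 0 of 78 recomputed age differences of Snrpa1 changed their side. Leaving out 1 mouse shifts a group mean by only part of that spread, so this limit was unlikely to be reached and the count says little. For the genotype differences, sign was checked only in pairs past the threshold, and lost calls were not counted. With a mouse left out, the count of partners past the threshold in red nucleus ran from 0 to 1 (1 without control mouse 28 of day 2), and the count of members that changed with age ran from 0 to 1 in hypoglossal neurons (1 without control mouse 254) and from 1 to 3 in red nucleus. With only the groups compared in the red nucleus age fit it was 0, where Sf3b1 had a limma adjusted p of 0.106 and Snrpb2 0.1; fewer samples then set the spread. The adjusted p of Snrpa1 between control populations ran from 0.00774 to 0.0781 as each mouse was left out. It was 0.0233 with no replicate block and 0.0039 with the mouse as a fixed block, so the call of Snrpa1 in this F test did not change. The pairs of populations nearest the threshold, such as hypoglossal and vagus (limma adjusted p 0.0541), were not looked at under another block. No paired analysis of SMA and control was possible because they share no mouse number and the labels used here do not give litters, although controls were littermates. Depth bears most on Sf3a2 and Sf3b4, with about 95.5 and 82.5 reads at the median depth and level, and on the red nucleus library of mouse 252, where 1 read of Sf3a2 is worth 1.10 RPKM.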
